A study of Mus musculus with 10 samples.

Results

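The enzymes of serine, mitochondrial folate, asparagine and proline synthesis were followed through treatment of a mouse skin tumor cell line with an AP-1 inhibitor and with a TGFß receptor inhibitor. The group was chosen by gene symbol and holds 10 genes of the 15997 listed in both RPKM tables (18380 in either table), namely Phgdh, Psat1, Psph, Shmt2, Mthfd2, Mthfd1l, Aldh1l2, Asns, Aldh18a1 and Pycr1. Earlier results of these data were known at that choice, so the shares of all genes set beside its counts are descriptive and not a test. All 10 were found in both tables and all 10 passed the filter on low values (a mean of at least 1 RPKM over a table), so no member was left out of a test. RPKM counts the reads of a gene scaled by the length of the gene and by the size of the library.

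RNA-seq was performed on ASZ001, a murine basal cell carcinoma (BCC) line that the study uses as a model of resistance to SMO inhibition, so a single line stands for resistant BCC here. One experiment compared 3 libraries of cells given 10 µM SB431542, an inhibitor of the TGFß receptor kinase ALK5, with 3 libraries of cells given the solvent DMSO. The other compared 2 libraries of cells given 20 µM T-5224, an inhibitor of AP-1, with 2 DMSO libraries of its own. All cells, controls included, were kept in low-serum medium and were treated for 24 h, and the study calls the replicates biological.

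PHGDH, PSAT1 and PSPH act in sequence to make serine from a glycolytic intermediate. SHMT2 in mitochondria splits serine into glycine and a folate-bound carbon unit, which MTHFD2, MTHFD1L and ALDH1L2 carry on to formate or carbon dioxide and which feeds nucleotide synthesis. ASNS makes asparagine from aspartate and glutamine, and ALDH18A1 and PYCR1 make proline from glutamate. Many of these genes are known targets of ATF4, the transcription factor of the integrated stress response, which cells mount when amino acids run short or proteins misfold.

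Library depth, worked out from the steps between low RPKM values, was 31.9 to 51.3 M reads. The thinnest member value, Pycr1 in a DMSO library of the T-5224 experiment, rested on about 460 reads, with a counting error of 4.66%. The 8 markers of basal keratinocytes were each at 1 RPKM or more in every library, and their summed level, most of it Krt5, Krt14 and Krt17, was 14940 to 15699 RPKM with DMSO and 2406 to 2515 RPKM with T-5224 (10878 to 11081 and 7619 to 8170 RPKM in the SB431542 experiment). The other markers of that list did not all follow the sum, since Epcam was higher with T-5224 (log2 fold change 0.81, adjusted p = 9.00e-08) and Krt15 and Epcam were higher with SB431542 (0.49 and 0.23). Of the other cell types, a single marker of each list was at 1 RPKM or more in every library. These were Cd68 of immune cells, Pecam1 of endothelium, Dcn of fibroblasts and Mitf of melanocytes. Ptprc, Cd3e, Itgam, Cdh5, Kdr, Col3a1, Lum, Tyr and Dct were not listed or were under 0.1 RPKM. Other markers lay between, with a highest value in any library of 0.58 RPKM for Pdgfra and 0.426 RPKM for Pmel. For Tek, Col1a2 and Col1a1 it was 0.192, 0.19 and 0.102 RPKM. From DMSO to T-5224 the sum of a list went from 16.7 to 18.6 up to 32.7 to 33.2 RPKM (immune), from 10.9 to 11.97 down to 4.13 to 4.67 RPKM (endothelial), from 8.83 to 9.79 down to 6.03 to 6.81 RPKM (melanocyte) and from 2.54 to 2.58 up to 2.65 to 2.84 RPKM (fibroblast). In the SB431542 experiment the endothelial sum was 5.30 to 6.74 RPKM with DMSO and 2.74 to 2.99 RPKM with SB431542, and the fibroblast sum 2.45 to 2.64 and 3.70 to 4.14 RPKM. There the immune and melanocyte sums overlapped between the groups, at 7.03 to 10.5 and 7.72 to 8.35 RPKM and at 10.9 to 12.7 and 10.7 to 11.8 RPKM. The part of these marker changes in the results was not tested. DMSO replicate 1 of the SB431542 experiment stood farther from its group than the other libraries, with an SD of 0.27 on the log2 scale across genes against 0.16 and 0.19 for the other DMSO libraries. It was also the lowest of all 6 libraries of that experiment for 8 of the 10 genes.

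With T-5224, 9 of the 10 genes were called up, meaning an adjusted p under 0.05 and a log2 fold change over 1 (limma). Aldh1l2 rose 18.2-fold, Mthfd2 11.3-fold, Pycr1 9.88-fold and Psph 9.39-fold, while Asns reached the highest level of all 10 at 611 ± 29.4 RPKM (SD, n = 2). Of all 10809 genes tested, 10.4% were called up by the same rule. At an adjusted p under 0.05 with no fold limit, all 10 genes were higher, against 40.3% of all genes. Both T-5224 libraries lay above both DMSO libraries for all 10, against 45.1% of all genes. The 10 genes had a median of 2.26 on the log2 scale, and all genes one of 0.003. In bulk RNA, a change in the number of cells that express a gene and a change in RNA per cell cannot be told apart.

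With SB431542, none of the 10 genes was called up, and 0.231% of the 10842 genes tested were. All 10 fold changes were above 1. At an adjusted p under 0.05 with no fold limit, 5 of the 10 genes were higher (Psat1, Mthfd2, Aldh18a1, Shmt2 and Mthfd1l), against 10.2% of all genes, and 7 were higher at an unadjusted p under 0.05. In 6 genes every SB431542 library lay above every DMSO library, against 23.9% of all genes, and in Psph, Aldh1l2, Asns and Pycr1 the groups overlapped. Their median was 0.29 on the log2 scale, against 0.008 for all genes. The count of 5 became 6 without DMSO replicate 1 or 2, 3 without DMSO replicate 3 and 2 without any single SB431542 library, Psat1 and Mthfd2 being the pair that passed each time.

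**Figure D1:**
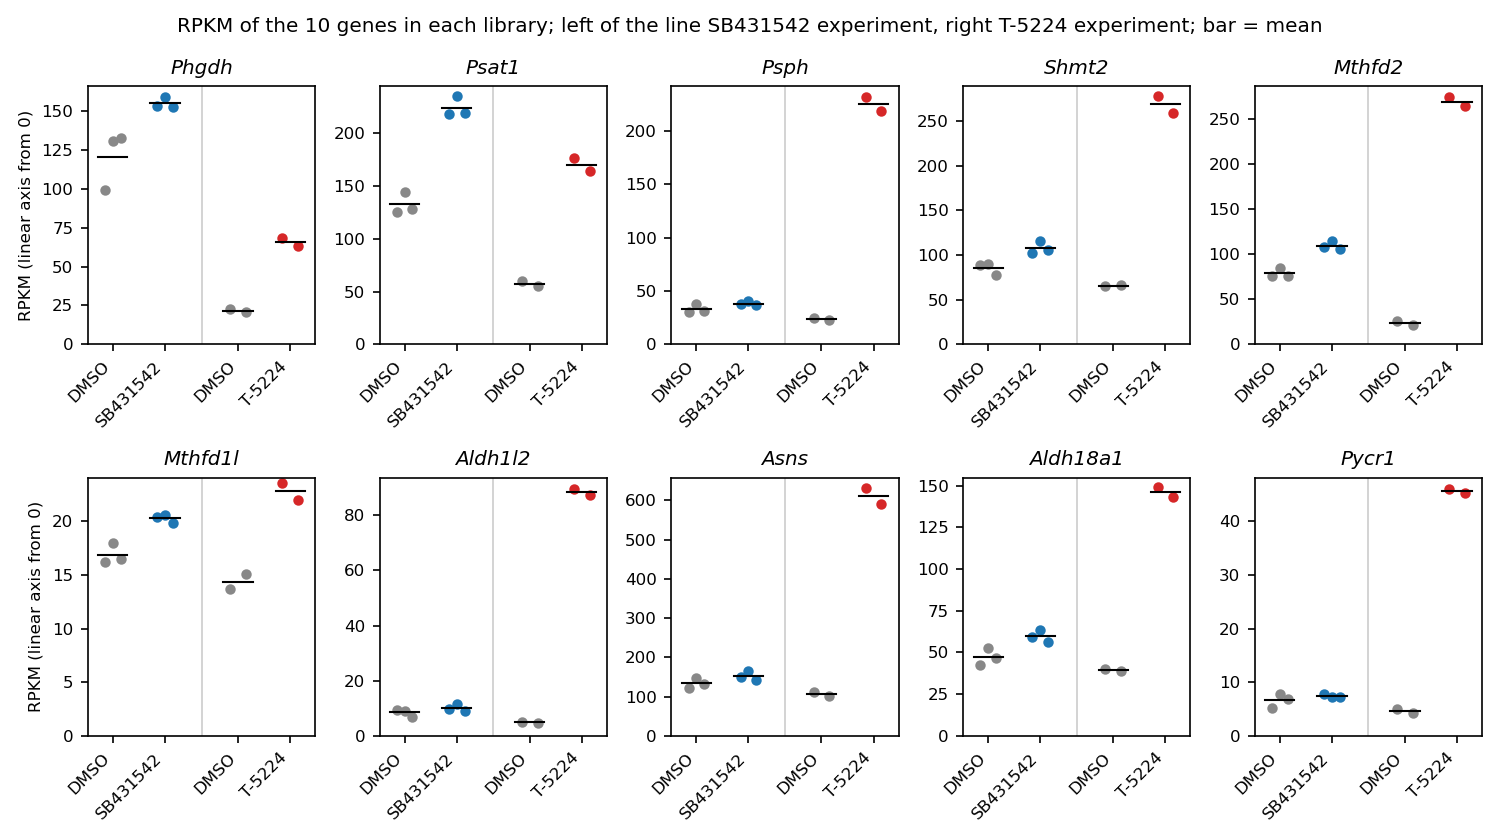
RPKM of each of the 10 genes (linear vertical axes that start at 0, scaled per gene) in every library, with the SB431542 experiment left and the T-5224 experiment right of the grey line; points are libraries and bars are group means. Both T-5224 libraries sit above both of their DMSO libraries in all 10 panels, and in the Psph, Aldh1l2, Asns and Pycr1 panels the SB431542 and DMSO points overlap.

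All 3 serine synthesis genes rose with T-5224, Psph of the last step with the largest fold change. Psph encodes the phosphatase that releases serine (mm9 chromosome 5, 130271434 to 130293129). It was at 24.99 and 22.9 RPKM with DMSO and at 231 and 218 RPKM with T-5224, a log2 fold change of 3.21 ± 0.06 (SE, adjusted p = 3.31e-12, limma). The T-5224 libraries were close to each other and far above the controls. In the SB431542 experiment Psph was at 29.9, 37.4 and 31.2 RPKM with DMSO and at 37.4, 40.3 and 36.7 RPKM with SB431542. These groups overlapped, and the log2 fold change of 0.22 ± 0.09 had an adjusted p of 0.125.

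Phgdh, the gene of the dehydrogenase that opens the pathway (chromosome 3, 98117093 to 98143913), was at 22.5 and 20.96 RPKM with DMSO and at 68.3 and 63.2 RPKM with T-5224. Its log2 fold change was 1.58 ± 0.06 (adjusted p = 1.12e-09). With SB431542 the values were 153, 159 and 152 RPKM against 99.0, 131 and 132 RPKM with DMSO. Every SB431542 library was higher, but the log2 fold change of 0.37 ± 0.11 had an adjusted p of 0.0507. Without DMSO replicate 1, the lowest library, the log2 fold change was 0.24 and the adjusted p was 8.67e-04. Phgdh has a pseudogene, Phgdh-ps1, in RefSeq, and how reads that map to several places were counted is not given in the sources used here.

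Psat1 encodes the transaminase between these steps (chromosome 19, 15979168 to 16021827) and gave the largest of the 10 fold changes with SB431542. It was at 125, 144 and 129 RPKM with DMSO and at 218, 236 and 219 RPKM with SB431542, a log2 fold change of 0.76 ± 0.07 (adjusted p = 6.90e-04). The groups were well apart, and the log2 fold change ranked 72 of the 10842 genes tested. With T-5224 it went from 59.8 and 54.9 RPKM to 176 and 164 RPKM, a log2 fold change of 1.56 ± 0.06 (adjusted p = 8.79e-10).

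The log2 fold changes of the mitochondrial folate genes ran from 0.65 to 4.06 with T-5224. Aldh1l2, whose product oxidizes formyl-folate (chromosome 10, 82950195 to 82996885), was among the lowest of the 10 genes with DMSO, at 5.08 and 4.63 RPKM, and was at 89.4 and 87.4 RPKM with T-5224. Its log2 fold change of 4.06 ± 0.07 (adjusted p = 1.06e-12) ranked 26 of 10809 genes. With SB431542 it was at 9.72, 11.6 and 8.96 RPKM against 9.48, 9.02 and 7.01 RPKM, groups that overlapped (log2 fold change 0.24 ± 0.13, adjusted p = 0.231). The log2 fold change was 0.11 without DMSO replicate 3 and 0.14 without SB431542 replicate 2.

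Mthfd2 encodes the dehydrogenase and cyclohydrolase of the same pathway (chromosome 6, 83255685 to 83267600). It was at 25.7 and 21.7 RPKM with DMSO and at 274 and 264 RPKM with T-5224, a log2 fold change of 3.48 ± 0.07 (adjusted p = 8.15e-12). In the SB431542 experiment it was at 108, 115 and 106 RPKM against 75.9, 85.2 and 76.0 RPKM, a log2 fold change of 0.47 ± 0.06 (adjusted p = 0.00370). Treated and control libraries were apart in both experiments.

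Shmt2, the gene of the enzyme that feeds serine into the pathway (chromosome 10, 126954195 to 126959491), was at 64.8 and 66.7 RPKM with DMSO and at 279 and 259 RPKM with T-5224. The log2 fold change was 2.02 ± 0.05 (adjusted p = 4.71e-11). With SB431542 it was at 102, 116 and 105 RPKM against 88.8, 90.4 and 78.0 RPKM, a log2 fold change of 0.33 ± 0.08 (adjusted p = 0.0250). This smaller rise no longer had an adjusted p under 0.05 without DMSO replicate 3 or without any one SB431542 library (up to 0.102).

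Mthfd1l, whose product releases formate (chromosome 10, 6179460 to 6373423), was the exception among the 10 genes with T-5224. It was at 13.7 and 15.1 RPKM with DMSO and at 23.6 and 22.0 RPKM with T-5224, groups that did not overlap. The log2 fold change of 0.65 ± 0.07 (95% interval 0.49 to 0.81, adjusted p = 5.58e-06) was under the fold limit. With SB431542 it was at 20.4, 20.6 and 19.8 RPKM against 16.2, 17.9 and 16.5 RPKM, a log2 fold change of 0.26 ± 0.06 (adjusted p = 0.0220). Without any one SB431542 library, or without DMSO replicate 3, this rise too no longer had an adjusted p under 0.05 (up to 0.0972).

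Asns, the asparagine synthetase gene (chromosome 6, 7625169 to 7643254), is a classical target of the amino acid response through an element near its transcription start. It was at 112 and 102 RPKM with DMSO and at 632 and 591 RPKM with T-5224, a log2 fold change of 2.51 ± 0.06 (adjusted p = 1.78e-11). SB431542 libraries had it at 150, 165 and 143 RPKM against 121, 148 and 133 RPKM, and these groups overlapped (log2 fold change 0.19 ± 0.09, adjusted p = 0.159). The 95% interval of the latter ran from -0.01 to 0.39, and the log2 fold change was 0.12 without DMSO replicate 1.

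Pycr1, the gene of the mitochondrial reductase that completes proline (chromosome 11, 120497026 to 120505083), was at 4.95 and 4.30 RPKM with DMSO and at 46.1 and 45.4 RPKM with T-5224. The log2 fold change was 3.18 ± 0.08 (adjusted p = 1.78e-11). SB431542 libraries had it at 7.79, 7.23 and 7.17 RPKM against 5.20, 7.88 and 6.86 RPKM, groups that overlapped (log2 fold change 0.16 ± 0.13, adjusted p = 0.421). The log2 fold change was 0.007 without DMSO replicate 1 and 0.28 without DMSO replicate 2. Aldh18a1, the gene of the synthase that opens the proline pathway (chromosome 19, 40624747 to 40662953), was at 40.3 and 39.1 RPKM with DMSO and at 149 and 143 RPKM with T-5224, a log2 fold change of 1.87 ± 0.05 (adjusted p = 6.61e-11). With SB431542 it was at 59.1, 63.4 and 56.2 RPKM against 42.2, 52.8 and 46.9 RPKM, a log2 fold change of 0.33 ± 0.09 (adjusted p = 0.0368). Leaving out DMSO replicate 3 or any one SB431542 library took that adjusted p above 0.05, to as much as 0.137.

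The sequences upstream of the genes were searched for motifs of factors that bear on the experiment. RefSeq (GRCm38.p6, a later build than the mm9 of the tables) gave the 250 bases before the start for 9 of the 10 genes, 10 windows in all because Psat1 has a pair of starts. Both strands were searched for the C/EBP-ATF element, spelled TGATGNAA, which ATF4 is known to bind, for the AP-1 site TGANTCA and for the CRE TGACGTCA. The C/EBP-ATF letters were in 2 of the 10 windows, those of Asns and Pycr1, and in 3.45% of all 32851 promoter windows. The AP-1 letters were in none of the 10 windows and in 6.75% of all windows, and the CRE letters in none and in 1.55%. A match describes letters and is not a bound site, and elements outside these windows were not searched. The windows with a match are shown from 5′ to 3′ on the minus strand, which carries both genes, and end at the base before the start, with the match in capitals. The match of Asns covers bases 23 to 16 before the start (window chr6:7693210-7693459), and that of Pycr1 bases 103 to 96 (window chr11:120643749-120643998).
Asns: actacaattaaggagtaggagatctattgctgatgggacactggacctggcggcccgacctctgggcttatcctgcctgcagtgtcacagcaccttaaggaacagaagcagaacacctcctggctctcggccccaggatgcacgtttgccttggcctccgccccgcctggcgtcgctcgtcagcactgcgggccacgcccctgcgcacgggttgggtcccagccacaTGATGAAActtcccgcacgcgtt
Pycr1: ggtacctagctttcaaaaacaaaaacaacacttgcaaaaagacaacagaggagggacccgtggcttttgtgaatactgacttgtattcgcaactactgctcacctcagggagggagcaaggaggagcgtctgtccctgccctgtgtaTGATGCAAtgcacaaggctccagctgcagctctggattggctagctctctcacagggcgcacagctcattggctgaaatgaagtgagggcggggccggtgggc

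The response to T-5224 was larger than that to SB431542 for all 10 genes when the difference itself was tested (limma over all 10 libraries, adjusted p under 0.05). Of the 10462 genes tested in both tables, 31.6% had a larger log2 fold change with T-5224 by this test. The difference of log2 fold changes was largest for Aldh1l2 at 3.82 and was 3.01 for both Pycr1 and Mthfd2, 2.99 for Psph and 2.31 for Asns. It was 1.70 for Shmt2, 1.54 for Aldh18a1 and 1.20 for Phgdh. It was smallest for Psat1 at 0.80 (95% interval 0.57 to 1.04, adjusted p = 7.60e-05) and Mthfd1l at 0.39 (95% interval 0.18 to 0.60, adjusted p = 0.00465). The inhibitors have different targets and were given at different doses in separate experiments. Aldh1l2 had the largest log2 fold change of the 10 genes with T-5224, and Psat1 with SB431542.

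**Figure D2:**
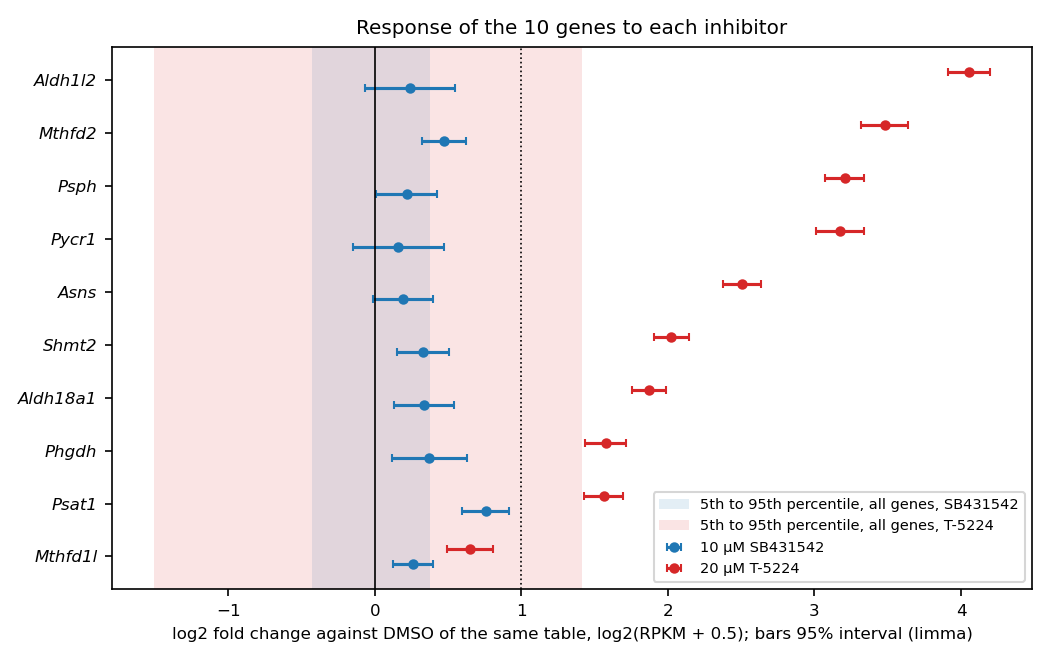
Log2 fold change against DMSO of the same table (horizontal axis, on log2(RPKM + 0.5)) of each gene with T-5224 (red) and SB431542 (blue); bars are 95% intervals from limma, shaded bands span the 5th to 95th percentile of all genes tested with each inhibitor, and the dotted line is the fold limit. All red points but Mthfd1l lie beyond the limit and all blue points lie below it, with Psat1 the blue point farthest right at 0.76.

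The DMSO levels of the experiments were not alike for part of the group. Phgdh was at 121 ± 18.8 RPKM (SD, n = 3) with DMSO in the SB431542 experiment and at 21.7 ± 1.09 RPKM (SD, n = 2) in the T-5224 experiment, a ratio of 5.55. The ratio was 3.33 for Mthfd2 and 2.31 for Psat1, lay between 1.17 and 1.75 for the other 7 genes and was above 1 for all 10. Over the 10462 genes tested in both tables the median ratio was 0.992, with the middle 50% of genes between 0.755 and 1.34. With T-5224, Phgdh at 65.8 ± 3.66 RPKM was still below the DMSO level of the SB431542 experiment, whereas Psph at 225 ± 9.49 RPKM was above every library of that experiment. The tables were normalized separately, so these levels are set side by side without a test.

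Closely related enzymes had smaller log2 fold changes than the members with T-5224, and the ratio within each pair was higher in both T-5224 libraries than in both DMSO libraries. Shmt1 encodes the cytosolic counterpart of SHMT2 and had a log2 fold change of 0.58 (adjusted p = 3.21e-06). The ratio of Shmt2 to Shmt1 was 3.55 and 3.60 with DMSO and 9.91 and 9.47 with T-5224. Mthfd2l, a relative of Mthfd2, had a log2 fold change of 0.25 (adjusted p = 0.0255), and the ratio of Mthfd2 to it went from 6.21 and 5.22 to 51.1 and 55.6. Mthfd1, the cytosolic enzyme, fell by 0.26 on the log2 scale (adjusted p = 0.00156), and the ratio of Mthfd1l to Mthfd1 went from 0.48 and 0.54 to 1.01 and 0.93. The ratio of Pycr1 to Pycrl, the cytosolic proline reductase gene, went from 0.23 and 0.22 to 1.72 and 1.75. Aldh1l1, the cytosolic relative of Aldh1l2, was listed at no more than 0.143 RPKM in any library and was not tested. In the SB431542 experiment treated and DMSO libraries overlapped for all 4 of these ratios, and that of Shmt2 to Shmt1 was 3.32, 3.70 and 3.25 against 5.11, 3.80 and 3.52 with DMSO.

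**Figure D3:**
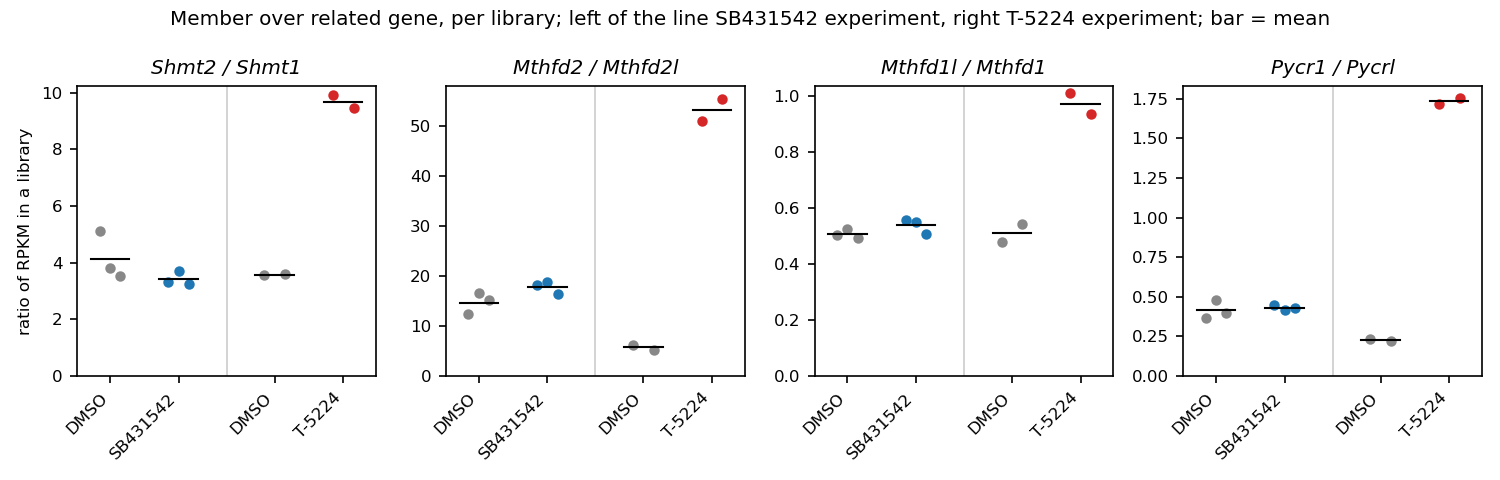
Ratio of RPKM of a member to RPKM of a related gene within each library (vertical axes from 0, scaled per panel), for 4 pairs, with the SB431542 experiment left and the T-5224 experiment right of the grey line; points are libraries and bars are group means. In every panel both T-5224 points lie above all other points, for example at 9.91 and 9.47 for Shmt2 over Shmt1.

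Some enzymes of neighbouring steps were called up and others down with T-5224, at shares near those of all genes under the fold limit. By the adjusted p alone, more of them were higher than lower. Of 50 listed genes of the rest of folate metabolism, serine and glycine breakdown, glutamate, aspartate and alanine handling, the rest of proline metabolism and the methionine cycle, 38 were tested with T-5224, and 5 were called up and 4 down. Over all genes tested, 10.4% were called up and 10.6% down. Without the fold limit, 23 of the 38 were higher and 8 lower at an adjusted p under 0.05, against 40.3% and 39.4% of all genes. These 38 had a median of 0.39 on the log2 scale, against 0.003 for all genes. With SB431542 none of 37 tested passed the fold limit, and the median was 0.23. At an adjusted p under 0.05, 18 were higher and none was lower, against 10.2% and 10.0% of all genes.

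Of the 16 other folate genes tested, Slc19a1, the carrier that brings reduced folates into the cell, and Mtrr, which reactivates methionine synthase, were called up with T-5224. Slc19a1 went from 4.32 and 4.81 RPKM to 11.8 and 11.4 RPKM (log2 fold change 1.26, adjusted p = 6.96e-08). Mtrr went from 4.81 and 4.14 RPKM to 10.4 and 10.3 RPKM (log2 fold change 1.13, adjusted p = 3.01e-07). None of the 16 was called down, and their median was 0.61. By the adjusted p alone, 11 lay higher and 2 lower, against 40.3% and 39.4% of all genes. None of 4 serine and glycine breakdown genes was called, 3 lay higher by the adjusted p alone, and their median was 0.52.

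Of the 9 genes of glutamate, aspartate and alanine handling, 2 were called up and 2 down with T-5224, against 10.4% and 10.6% of all genes. Gpt2, the mitochondrial alanine transaminase gene, rose from 10.0 and 10.3 RPKM to 37.9 and 35.1 RPKM (log2 fold change 1.79), and Got1, the cytosolic aspartate transaminase gene, rose by 1.44 on the log2 scale. Gpt, the cytosolic alanine transaminase gene, fell by 1.57 on the log2 scale, from 18.7 and 18.6 RPKM to 6.12 and 5.81 RPKM. Glul, the glutamine synthetase gene, fell by 2.42 from a low level, 2.86 and 2.43 RPKM with DMSO against 0.082 and 0.093 RPKM. The highest adjusted p of these 4 genes was that of Glul, at 2.54e-08 (limma).

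A single gene of the proline list and a pair of the transsulfuration list passed the rule with T-5224. For all genes tested, the shares were 10.4% up and 10.6% down. Aldh4a1, which acts in proline breakdown, went from 10.8 and 10.4 RPKM to 2.47 and 2.22 RPKM with T-5224, a fall of 1.97 on the log2 scale (adjusted p = 2.99e-09), so that it went opposite to Pycr1 and Aldh18a1. Of the 4 genes of that list it was the only one called. By the adjusted p alone, 3 of the 4 were higher and 1 lower, against 40.3% and 39.4% of all genes. In the methionine cycle and transsulfuration list of 5, Cth, which makes cysteine from cystathionine, rose from 4.26 and 3.39 RPKM to 19.3 and 16.5 RPKM (log2 fold change 2.09, adjusted p = 9.21e-09). Cbs, which makes cystathionine, went from 4.86 and 4.88 RPKM to 1.10 and 1.12 RPKM, a fall of 1.74 on the log2 scale (adjusted p = 2.99e-08). Of these 5 genes, 2 were higher and 3 lower by the adjusted p alone. With SB431542 Cth was also higher (log2 fold change 0.58, adjusted p = 0.0213).

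**Figure D4:**
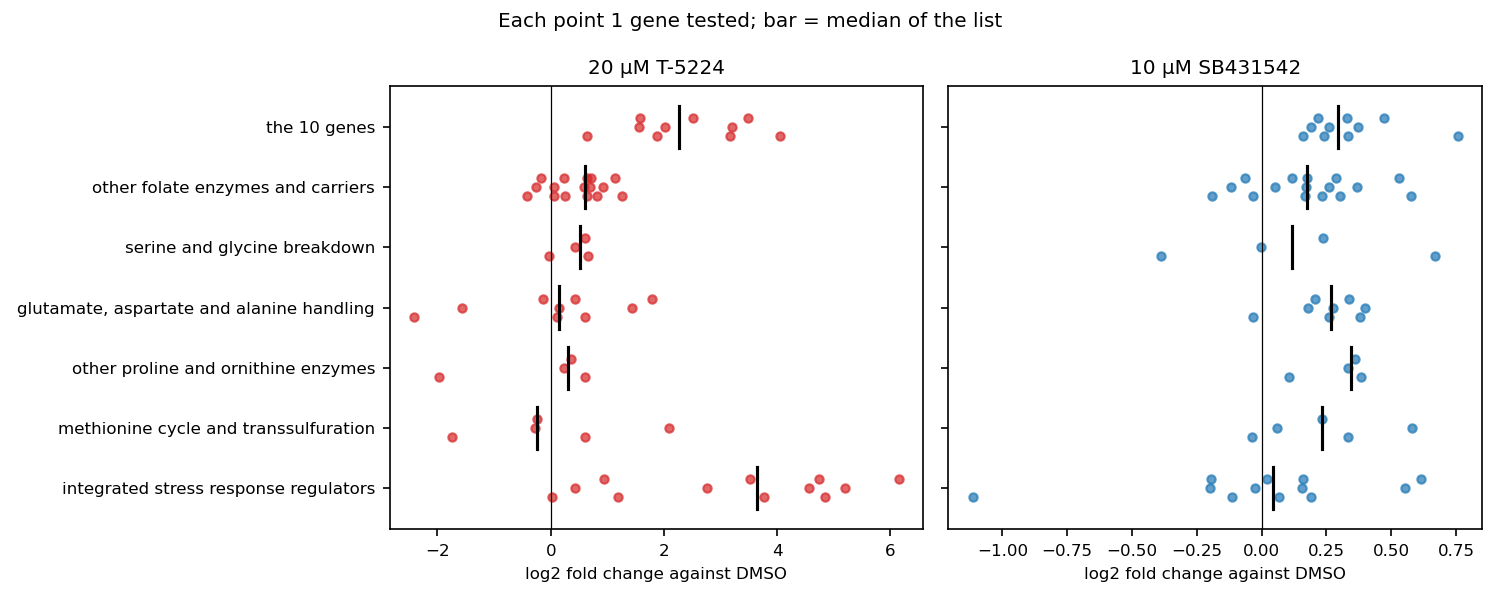
Log2 fold change against DMSO (horizontal axes, of different range) of the 10 genes, of 5 lists of neighbouring enzymes and of integrated stress response regulators, with T-5224 on the left and SB431542 on the right; each point is a gene tested and each vertical bar is the median of its list. With T-5224 the median is 2.26 for the 10 genes and 3.64 for the stress response regulators, and lies between -0.24 and 0.61 for the other lists.

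The regulators of the integrated stress response were high in the same T-5224 libraries. Of 12 tested, 9 passed the rule for up and 11 lay higher by the adjusted p alone, against 10.4% and 40.3% of all genes. Their median log2 fold change was 3.64. Trib3, a pseudokinase gene induced by ATF4, went from 7.98 and 6.31 RPKM to 548 and 531 RPKM (log2 fold change 6.15), and Atf3 rose by 5.20, Ddit3 by 4.85 and Nupr1 by 4.74 on the log2 scale. Atf4 itself, named for its known role and after its values were seen, went from 45.2 and 47.1 RPKM to 545 and 521 RPKM (log2 fold change 3.52, adjusted p = 6.70e-13). With SB431542 none of the 12 was called up and Nupr1 was called down, with a fall of 1.11 on the log2 scale (adjusted p = 0.00577) that did not pass the rule without DMSO replicate 1. Atf4 was at 159, 178 and 164 RPKM with SB431542 against 112, 120 and 109 RPKM, a log2 fold change of 0.55 (adjusted p = 0.00189), and Trib3 had a log2 fold change of 0.61 (adjusted p = 0.0470). The part of these regulators in the levels of the 10 genes was not tested.

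Within the group, Asns and Shmt2 lay closest to the median profile of the 10 genes over the 10 libraries, with root mean square distances of 0.126 and 0.130 on the log2 scale, and Aldh1l2 lay farthest, at 0.810, followed by Mthfd1l at 0.726. Outside the group, the 5 genes whose profile was most like that median were P3h2 (distance 0.0755), Cers2 (0.0911), Scpep1 (0.0943), Eif4ebp1 (0.0958) and Slc1a5 (0.0993). P3h2, a collagen prolyl hydroxylase gene, went from a mean of 5.47 RPKM with DMSO to 26.1 RPKM with T-5224, and Cers2, a ceramide synthase gene, from 35.6 to 168 RPKM. Eif4ebp1, which encodes an inhibitor of cap-dependent translation, went from 103 to 553 RPKM. These distances describe 10 libraries, of which 2 carry T-5224, and were not tested.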

How the data were processed

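Each experiment has its own table of RPKM per gene and library, which the authors computed with HOMER after alignment to mm9 by TopHat. Gene names turned into dates by a spreadsheet were dropped (22 and 23 rows). The DMSO columns of the T-5224 table could be tied to their group but not to single samples.

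Tests used limma (version 3.58.1, R 4.3.3) with its mean-variance trend and moderated variances. They were run on log2(RPKM + 0.5) of the genes whose mean over a table reached 1 RPKM, 10842 for SB431542 and 10809 for T-5224. The p-values are two-sided, with Benjamini-Hochberg adjustment over each table. Fold changes are on that scale, which understates low genes. "Fold" values are ratios of mean RPKM. The difference between inhibitors was a contrast of 4 group means over all 10 libraries. The fit was tested on simulated data. Counts were not used here. Positions are from GENCODE on NCBIM37, the assembly behind mm9.

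The members and lists were chosen with earlier results of these data known. Named were all 10 members, their relatives, up to 4 called genes per list by size of change, and the 5 genes most like the members; some genes of the lists are not reported here. Alternatives were pseudocounts of 0.1 and 1, other filters and thresholds, median centring, quantile normalization, no trend, the replicate block and each library left out.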

Additional observations from a re-analysis of the deposited data

How the results depend on the processing

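With T-5224, 9 of the 10 genes were called up under every alternative tried and without each library in turn, except that all 10 were with no fold limit, and the difference between inhibitors was called for 10 of 10 in each, except that 8 (all but Psat1 and Mthfd1l) had a difference over 1. With SB431542 the count up was 0 in each but the one with no fold limit, which gave 5. With no fold limit, the other pathway enzymes numbered 23 up and 8 down with T-5224 and 18 up with SB431542, and the stress response regulators 2 up with SB431542. With a mean RPKM of at least 5, 2 enzymes were down with T-5224, against 4, because Glul and Cbs fell under that filter and were not tested. Their means with DMSO and T-5224 were 2.65 and 0.0875 RPKM (Glul) and 4.87 and 1.11 RPKM (Cbs). The count of 1 stress response regulator down with SB431542 ranged from 0 to 1 as single libraries were left out, and was 0 without DMSO replicate 1. Median centring gave Phgdh an adjusted p of 0.0359 with SB431542, and no filter on low values gave Aldh18a1 one of 0.0680. Without DMSO replicate 3 Phgdh had an adjusted p of 0.0440, and without DMSO replicate 2 Psph had one of 0.0362. The causes of these shifts in adjusted p were not tested.

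With the replicate block for SB431542, 0 genes were called up and 4 of the 10 were higher at an adjusted p under 0.05, Mthfd1l being the one lost (adjusted p = 0.0590). Deviations of same-numbered libraries from their group means correlated across genes at -0.148, 0.151 and -0.0949, so the numbers were not taken as pairs. No block was fitted for T-5224, since the labels of its groups share no replicate numbers (the DMSO samples are numbered 4 and 5, while the columns of the table say 1 and 2). With 2 or 3 libraries a group, the spread between libraries sets the limit.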
